A study of Mus musculus with 10 samples.

Results

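The genes examined here are 7 transcription regulators that carry the output of the circadian clock, followed in the mouse ileum: Dbp, Tef, Hlf, Nfil3, Ciart, Bhlhe40 and Bhlhe41. They were found by gene symbol on the array, where they account for 7 of 16590 named genes and 9 of 25697 probes. A probe counted as measured where its detection p, which compares its signal with the negative controls, was under 0.05 on at least 5 arrays. This held for 7 of the 9 probes and 6 of the 7 genes. Dbp and Nfil3 were picked because their knockout differences ran in opposite directions in these samples, so those differences are given as a description with no test.

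The clock is a transcription loop in which CLOCK and ARNTL (BMAL1) switch on genes through E-box sequences, and some of the proteins made from those genes switch the loop off again. DBP, TEF and HLF are PAR bZIP activators that bind D-box sequences, NFIL3 is a bZIP repressor that binds the same sequences, and CIART, BHLHE40 and BHLHE41 repress the action of CLOCK and ARNTL. In mouse gut epithelium Nfil3 is known as a rhythmic gene that lies under STAT3 and the clock repressor REV-ERB alpha and that promotes lipid uptake.

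Ileum was profiled on Illumina bead arrays from male C57Bl/6 mice of 8 weeks of age, housed under specific-pathogen free conditions and fed standard chow. There were 5 wild-type (WT) samples and 5 samples labelled IFNgKO, which lack interferon-gamma, and the labels name no treatment. Array set 1 held WT_640 and WT_641 with IFNgKO_645 and IFNgKO_646, and array set 2 held WT_642 to WT_644 with IFNgKO_647 to IFNgKO_649. The labels give neither the knockout allele nor an hour of tissue collection. Any difference in hour between the genotypes cannot be told apart from genotype here. The labels also do not say whether the samples came from separate animals. This means that p-values cover the spread among these 10 samples, possibly technical in part. Levels below are log2 normalised intensities, and differences are knockout minus WT on that scale with array set in the fit.

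RefSeq promoters (build GRCm38.p6) were matched for 6 of the 7 genes, all but Bhlhe40, and the 250 bases before each annotated start were searched on both strands. The motifs were the E-box CACGTG, the D-box TTATGTAA, and TAGGTCA, a sequence recognised by the ROR and REV-ERB receptors, and no matches overlapped. The stretches are printed 5′ to 3′ on the strand of the gene, with the matched motif in capitals, because they show which clock output genes carry the sequences of the loop close to their start. The E-box was found upstream of Ciart, of both starts of Tef and of Bhlhe41.
Ciart (chr3:95882259-95882358, minus strand): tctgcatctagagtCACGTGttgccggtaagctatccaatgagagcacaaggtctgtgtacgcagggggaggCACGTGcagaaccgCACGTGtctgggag
Tef start 1 (chr15:81802513-81802582, plus strand): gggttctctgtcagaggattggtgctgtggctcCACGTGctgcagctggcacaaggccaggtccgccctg
Tef start 2 (chr15:81811244-81811313, plus strand): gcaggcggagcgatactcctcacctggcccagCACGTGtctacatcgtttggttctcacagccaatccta
Bhlhe41 (chr6:145865536-145865605, minus strand): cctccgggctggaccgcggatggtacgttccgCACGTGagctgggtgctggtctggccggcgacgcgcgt

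Ciart held 3 E-boxes, which began 116, 58 and 44 bases before its start. Of 32851 RefSeq promoter windows of the same length, 6.02% held at least 1 E-box and 0.0609% (20 windows) held at least 3. Nfil3 held 1 receptor sequence, which lay on the opposite strand and so reads TGACCTA on the strand of the gene. It ended 6 bases before the start, and 2.23% of the windows held this motif. The stretch before Dbp, which had none of these motifs, and that of the core clock gene Per3, which had 2 D-boxes, are printed for comparison. At least 1 D-box was present in 0.819% of the windows and at least 2 in 0.0183%. A match is a description of the letters, and the lack of one says only that these letters are not in the window.
Nfil3 (chr13:52981040-52981109, minus strand): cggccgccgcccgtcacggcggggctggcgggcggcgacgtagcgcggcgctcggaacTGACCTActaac
Dbp (chr7:45705127-45705246, plus strand): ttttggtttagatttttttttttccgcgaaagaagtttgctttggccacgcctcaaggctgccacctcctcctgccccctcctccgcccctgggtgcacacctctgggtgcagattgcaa
Per3 (chr4:151044796-151044895, minus strand): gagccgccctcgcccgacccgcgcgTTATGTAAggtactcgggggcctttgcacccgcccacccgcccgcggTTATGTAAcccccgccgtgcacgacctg

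**Figure D1:**
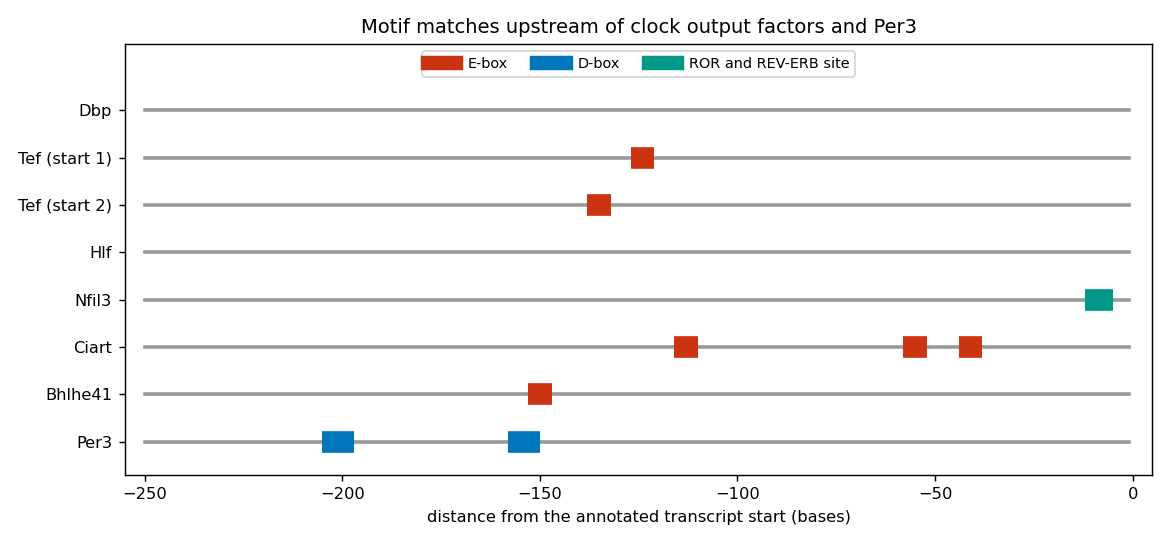
Motif matches in the 250 bases before the annotated starts of the clock output factors and of Per3, with the distance from the start in bases on the horizontal axis. Ciart carries 3 E-boxes, Nfil3 carries 1 receptor sequence, Per3 carries 2 D-boxes, and the lines of Dbp and Hlf are empty.

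The arrays detected 10618 to 12975 probes each, and 12039 probes of 8685 genes entered the tests. WT_641 had the fewest detected probes and the lowest array weight, 0.280 against 0.786 to 1.69 for the others. Of the enterocyte markers, Apoa1, Sis and Vil1 were measured, while Fabp2 and the bile acid transporter Slc10a2 were detected on no array. Fabp6, the ileal bile acid binding protein, which was looked up after the values were seen, was detected on all 10 arrays. The 2 Ifng probes were detected on no array, so they do not check the genotype labels.

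Dbp, an activator known for its binding to the albumin promoter, stood higher in the knockout samples. Its log2 level was 10.33 in WT_640, 10.71 in WT_641, 11.24 in WT_642, 10.98 in WT_643 and 11.34 in WT_644. In the knockout samples it was 12.21 in IFNgKO_645, 11.51 in IFNgKO_646, 12.13 in IFNgKO_647, 11.71 in IFNgKO_648 and 12.28 in IFNgKO_649. The groups did not overlap, although IFNgKO_646 lay close to the highest WT samples. The WT mean was 10.92 ± 0.41 and the knockout mean 11.97 ± 0.34 (SD, n = 5 each), which gave a difference of 1.05 ± 0.18 (SE). The difference was 1.35 within array set 1 and 0.85 within array set 2. All knockout samples lay above all WT samples for 0.706% of the 12039 probes, and nothing is read from this share for Dbp, which was chosen on the contrast. In whole tissue, fewer cells of a type and less RNA per cell cannot be told apart.

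Tef, a PAR bZIP relative of Dbp, had a higher mean in the knockout but overlapping groups. Its log2 level was 8.35, 8.71, 8.30, 8.76 and 9.42 in WT_640 to WT_644. It was 9.43, 8.99, 8.98, 8.90 and 9.65 in IFNgKO_645 to IFNgKO_649. WT_644 lay above 3 of the knockout samples, and the other 4 WT samples lay below all 5. The difference was 0.48 ± 0.22 (SE) between 8.71 ± 0.45 and 9.19 ± 0.33 (SD, n = 5 each), which did not pass (limma, adjusted p = 0.401). A second Tef probe was detected on no array.

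Hlf, the remaining PAR bZIP factor, gave a dim signal with raw intensities of 115.9 to 142.6. Its log2 level was 5.98, 6.50, 5.50, 5.78 and 6.01 in WT_640 to WT_644. In IFNgKO_645 to IFNgKO_649 it was 6.14, 6.15, 5.87, 5.68 and 5.66. The groups lay across each other, and the highest and lowest of all 10 samples were both WT. The difference of -0.05 ± 0.14 did not pass (limma, adjusted p = 0.899), and its sign turned under some settings, with 0.06 under median scaling and 0.03 without WT_641.

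Nfil3, the repressor that competes with these activators for the D-box, stood lower in most knockout samples. Its log2 level was 9.33 in WT_640, 9.23 in WT_641, 8.65 in WT_642, 8.69 in WT_643 and 8.44 in WT_644. In the knockout samples it was 8.30 in IFNgKO_645, 8.56 in IFNgKO_646, 7.73 in IFNgKO_647, 8.50 in IFNgKO_648 and 6.80 in IFNgKO_649. The pooled groups overlapped, since IFNgKO_646 and IFNgKO_648 lay above WT_644. IFNgKO_649 was the lowest sample by a wide margin. The WT mean was 8.87 ± 0.39 and the knockout mean 7.98 ± 0.74 (SD, n = 5 each), which gave a difference of -0.89 ± 0.24 (SE). The difference was -0.85 within array set 1, where the genotypes did not overlap, and -0.92 within array set 2, where they did.

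**Figure D2:**
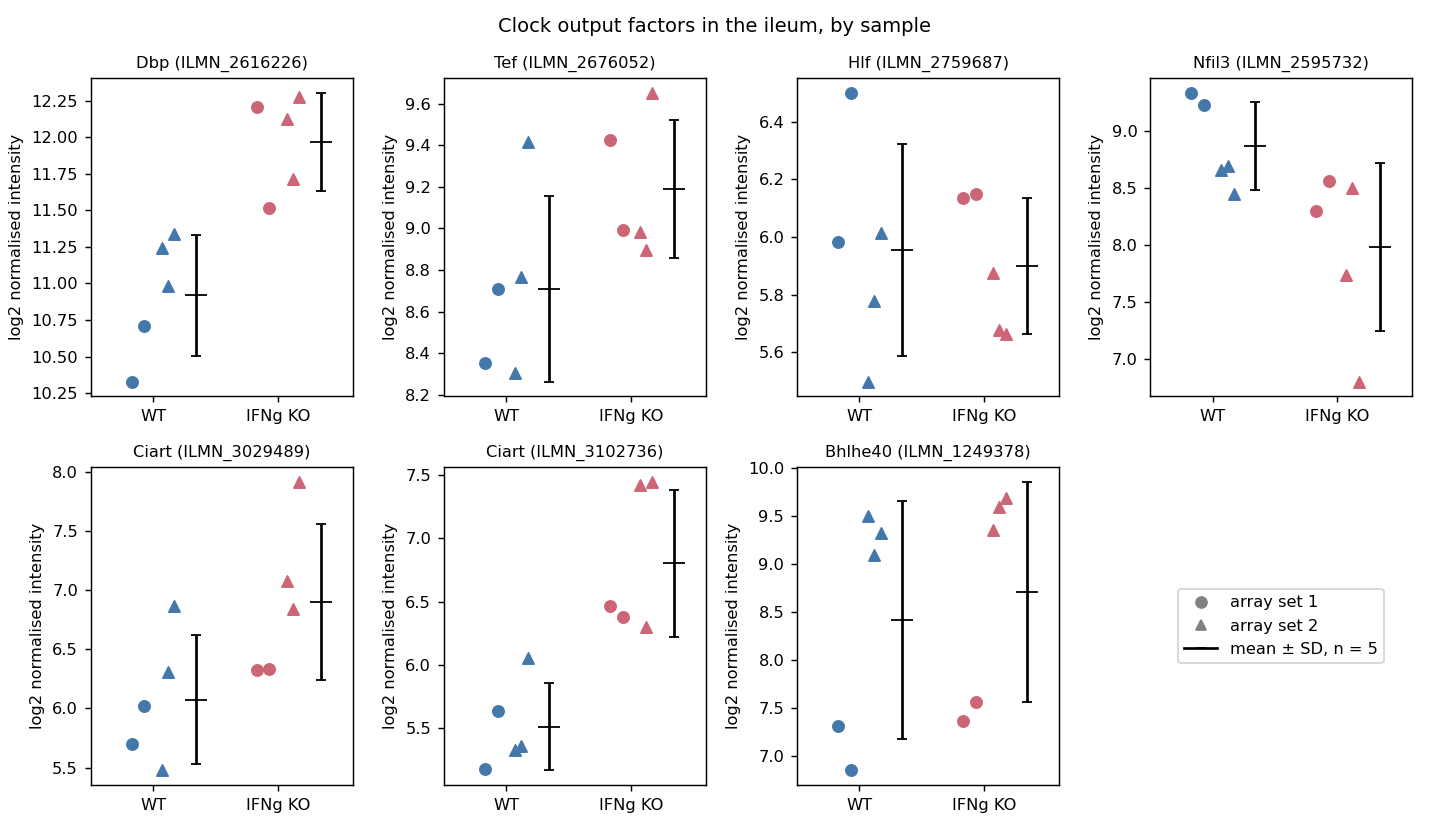
Log2 normalised intensity of the 7 measured probes in each of the 10 samples, by genotype, with circles for array set 1, triangles for array set 2 and bars for the mean ± SD (n = 5). Dbp and 1 Ciart probe separate the genotypes, as 0.706% of all probes do with the knockout above, while Bhlhe40 separates the array sets.

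Ciart, a repressor of the CLOCK and ARNTL pair, was read by 2 probes whose means were both higher in the knockout. The probe ILMN_3029489, detected on all arrays, read 5.70, 6.02, 5.48, 6.31 and 6.87 in WT_640 to WT_644. It read 6.33, 6.33, 7.08, 6.84 and 7.92 in IFNgKO_645 to IFNgKO_649. The groups overlapped through WT_644, and IFNgKO_649 was highest. The difference was 0.83 ± 0.26 between 6.07 ± 0.54 and 6.90 ± 0.66 (SD, n = 5 each), and it did not pass (limma, adjusted p = 0.286). It was 0.47 without background correction and 0.47 within array set 1.

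The probe ILMN_3102736 was the measured probe nearest the detection limit, with 2 of 5 WT and 5 of 5 knockout arrays detected. It read 5.18, 5.64, 5.33, 5.36 and 6.05 in WT_640 to WT_644. It read 6.47, 6.38, 7.42, 6.30 and 7.45 in IFNgKO_645 to IFNgKO_649. All knockout samples lay above all WT samples, a separation that 0.706% of all probes showed, and IFNgKO_647 and IFNgKO_649 were the highest. The difference of 1.29 ± 0.23 (SE) between 5.51 ± 0.34 and 6.80 ± 0.58 (SD, n = 5 each) did not pass (limma, adjusted p = 0.175). It was 0.68 without background correction and 0.67 on the authors' table, where it did not pass, and 1.41 under median scaling, where it passed (limma, adjusted p = 0.0221). Over all 21 alternatives the adjusted p ran from 0.0221 to 0.902. The probe passed the detection filter through the knockout arrays, so its difference is no separate support for that of the brighter Ciart probe.

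Bhlhe40 (DEC1), a basic helix-loop-helix repressor that binds E-boxes, differed between the array sets. Its log2 level was 7.32 and 6.85 in WT_640 and WT_641, and 7.36 and 7.57 in IFNgKO_645 and IFNgKO_646. In array set 2 it was 9.50, 9.09 and 9.33 in WT_642 to WT_644, and 9.35, 9.59 and 9.68 in IFNgKO_647 to IFNgKO_649. Every sample of array set 2 lay above every sample of array set 1. The genotype difference of 0.29 ± 0.14 did not pass (limma, adjusted p = 0.420), nor did its value of 0.50 under median scaling. Its close relative Bhlhe41 (DEC2) was detected on no array, with a lowest detection p of 0.29574.

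Leaving out Dbp and Nfil3, 0 of the 5 remaining measured probes passed an adjusted p of 0.05 for genotype in limma, where 0.0166% of all 12039 probes passed. At an unadjusted p under 0.05 were 3 of the 5, Tef and both Ciart probes, beside 12.2% of all probes, and 1 of these, Ciart ILMN_3102736, had entered through the knockout arrays. Of the 6 measured genes, Dbp and Nfil3 included, 4 had a higher mean in the knockout and 2 a lower one, with a median difference of 0.39 against -0.001 over all 8685 tested genes. Because Dbp and Nfil3 were chosen on this contrast, the count and the median are a description only. Median scaling moved the median of all probes from 0.004 to 0.19, so differences under that setting are relative to this shift. The genotype difference was not shown to vary with array set for any measured probe (limma interaction, adjusted p = 0.999 for each), and 0 of 12039 probes passed that test, with 3.17% at an unadjusted p under 0.05.

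Array set had a test of its own, which compared array set 2 with array set 1 at equal genotype. Bhlhe40 was higher in array set 2 by 2.15 ± 0.15 (limma, adjusted p = 1.59e-06), and it was the only measured probe of the 7 that passed in either direction, where 19.2% of all probes did. By size this was the 18th largest array set difference of 12039. Nfil3 was lower in array set 2 by -0.72 on the log2 scale (limma, adjusted p = 0.0580), Hlf by -0.44 (limma, adjusted p = 0.0509), and neither passed. Dbp differed by 0.42 (limma, adjusted p = 0.123) and Tef by 0.13 (limma, adjusted p = 0.692). Ciart differed by 0.65 for ILMN_3029489 (limma, adjusted p = 0.103) and by 0.40 for ILMN_3102736 (limma, adjusted p = 0.243). The labels do not say what set the array sets apart beyond the array, and any other difference between the sets cannot be told apart from it.

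**Figure D3:**
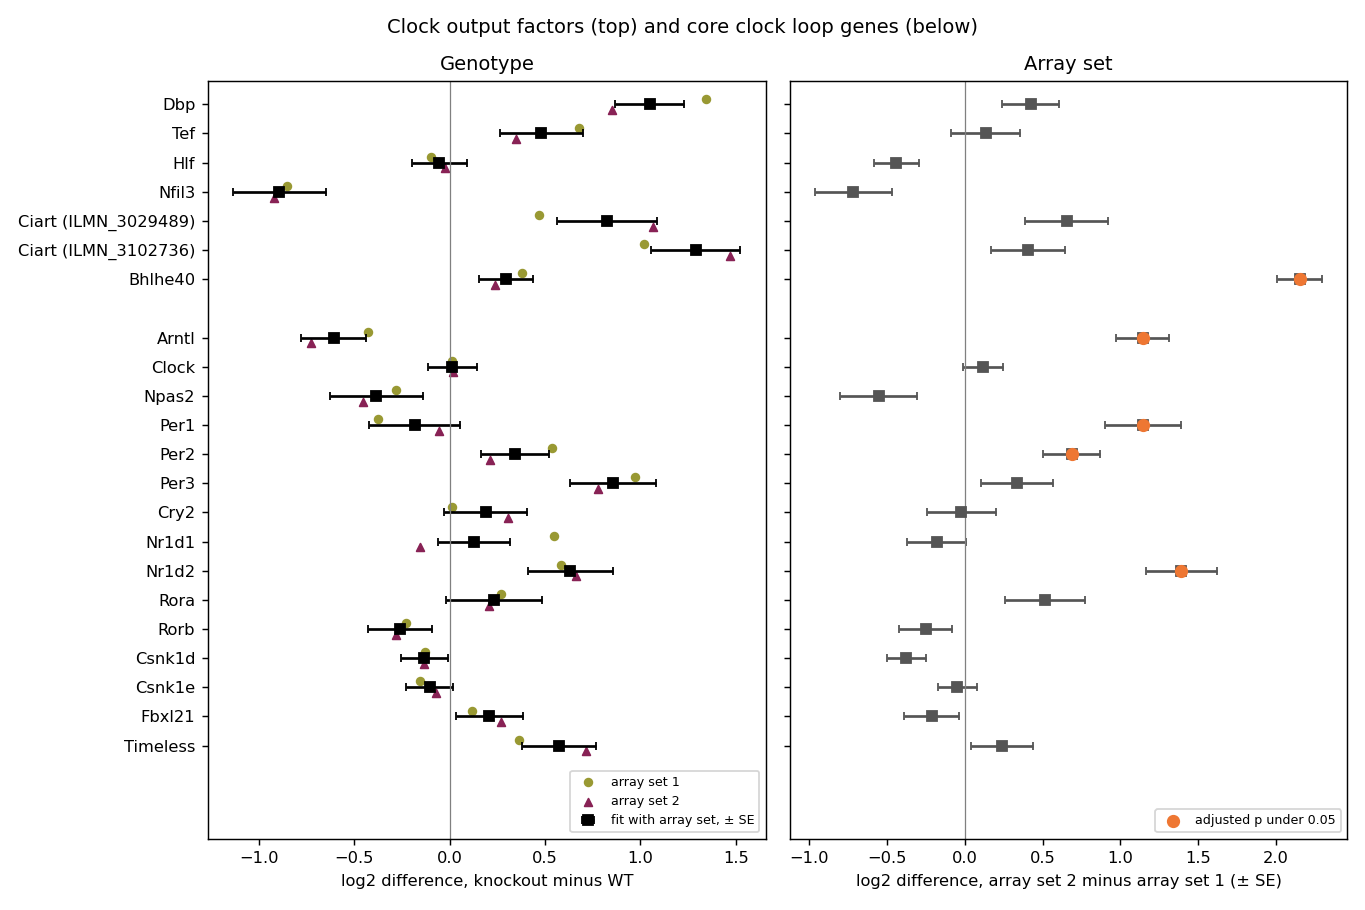
Log2 differences for the measured clock output probes (top) and core clock genes (below), by genotype on the left, with squares for the fit ± SE and small symbols for each array set, and by array set on the right, with orange for an adjusted p under 0.05. Dbp and Nfil3 lie at 1.05 and -0.89 for genotype, and Bhlhe40 lies at 2.15 for array set.

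Within a genotype and array set, Dbp and Nfil3 also tended to run against each other under the main processing, but less so under median scaling. WT_642 and IFNgKO_647 lay above the mean of their genotype and array set for both genes. In array set 1 each genotype had 2 samples, whose deviations mirror each other. After the mean of each genotype in each array set was subtracted, Pearson's r over the 10 samples was -0.68 (two-sided exact permutation within those cells, p = 0.0208) and Spearman's rho was -0.89 (exact permutation p = 0.00694, the smallest that the permutations can give). IFNgKO_648 lay at -0.33 from that mean for Dbp and at 0.83 for Nfil3, while IFNgKO_649 lay at 0.24 for Dbp and at -0.88 for Nfil3. Without the 2 samples farthest from the median for Dbp, IFNgKO_646 and IFNgKO_648, r was -0.49 (exact permutation p = 0.125), and without the 2 farthest for Nfil3, IFNgKO_648 and IFNgKO_649, it was -0.89 (exact permutation p = 0.125). Without IFNgKO_646 alone r was -0.78 and without IFNgKO_648 alone it was -0.50, so its size depended most on IFNgKO_648 among the single samples. When single samples were left out, r ran from -0.78 to -0.50, and the exact permutation p was 0.0625 without WT_644 or without IFNgKO_647, IFNgKO_648 or IFNgKO_649. Under median scaling r was -0.21 (exact permutation p = 0.590).

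The same measure was taken for all 11 pairs of Dbp or Nfil3 with a measured probe, a set added after the data were seen, and none passed an adjusted p of 0.05. Nfil3 with Tef gave r = -0.66 (exact permutation p = 0.0139, adjusted p = 0.0764), and Nfil3 with Ciart gave r = -0.68 for ILMN_3029489, the probe detected on all arrays (exact permutation p = 0.0556, adjusted p = 0.122), and r = -0.77 for ILMN_3102736 (exact permutation p = 0.0347, adjusted p = 0.0955). Dbp with Nfil3 had an adjusted p of 0.0764 by exact permutation within this family. Dbp gave r = 0.39 with Ciart ILMN_3029489 (exact permutation p = 0.271, adjusted p = 0.426) and r = 0.70 with ILMN_3102736 (exact permutation p = 0.0208, adjusted p = 0.0764). It gave r = 0.61 with Tef (exact permutation p = 0.0972, adjusted p = 0.178). Nfil3 with Hlf and with Bhlhe40 each gave r = -0.08.

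**Figure D4:**
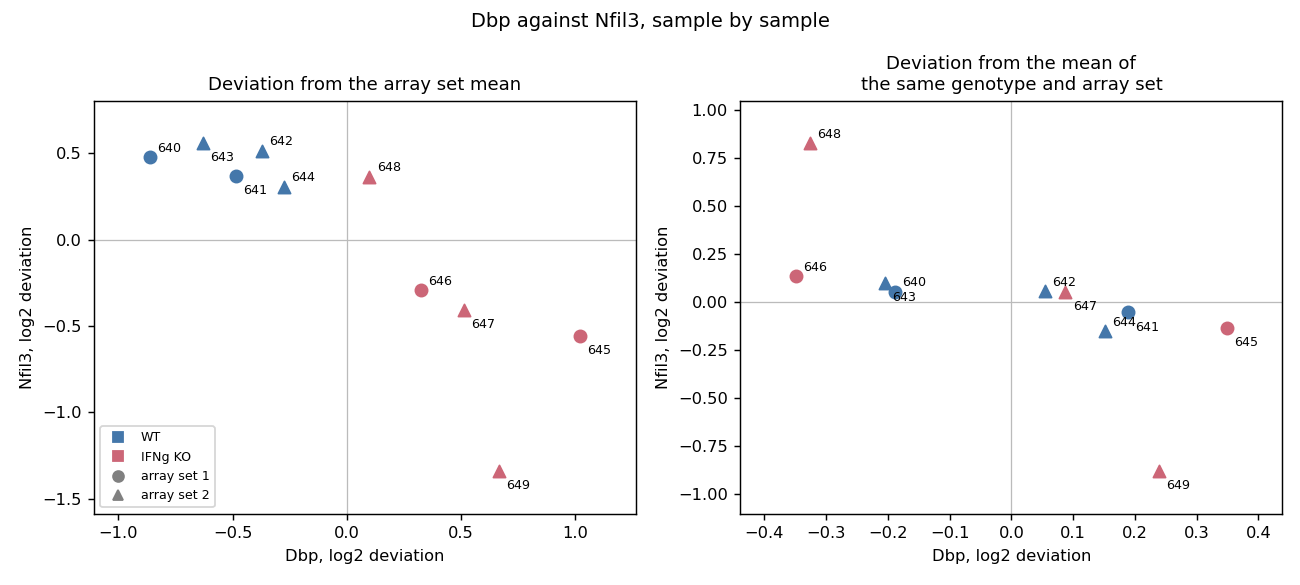
Dbp against Nfil3 in each sample as log2 deviations, from the array set mean (left) and from the mean of the same genotype and array set (right), with blue for WT, red for knockout and the sample number beside each point. IFNgKO_648 and IFNgKO_649 lie farthest apart on the Nfil3 axis of the right panel, at 0.83 and -0.88.

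Genes were ranked by their correlation with Dbp and with Nfil3 over the 10 samples after the array set mean was subtracted, 1 probe per gene and 8684 other genes, as a description that includes the genotype difference. Most like Dbp were Rnf26 (r = 0.93), Abhd14a (0.90), 1110017D15Rik (0.89) and Bpnt2 (0.88). Of these, 1110017D15Rik was detected on 1 WT array and 4 knockout arrays. It met the detection filter mainly through the knockout arrays, where Dbp was also higher, so nothing is read from its place. Most opposite to Dbp were Fam20a, Ide, Chmp2b and Sorcs1, each at r = -0.92. Among its own group, Tef stood 142nd from the top (r = 0.75), Ciart 303rd (r = 0.67) and Bhlhe40 746th (r = 0.54). Hlf stood 4574th from the top (r = -0.03) and Nfil3 35th from the bottom (r = -0.84).

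Most like Nfil3 were Fam8a1 (r = 0.96), Sema4a (0.93), Nus1 (0.93) and Hsd17b2 (0.92). The gene most opposite to Nfil3 was Nr1d2 (r = -0.95), which encodes the clock repressor REV-ERB beta, followed by Nipsnap1, Lsm5 and Pkp1. Dbp stood 36th from the bottom (r = -0.84), Ciart 59th (r = -0.83), Tef 127th (r = -0.77) and Bhlhe40 900th (r = -0.53). Hlf stood 3869th from the top (r = 0.06). These values moved with the processing: over 3 other processings the genes most like Nfil3 ran from 0.50 to 0.94, and those most opposite to Dbp from -0.93 to -0.01. The samples share their arrays and the genotype groups, so the ranks say nothing of shared function.

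Of 19 core clock genes listed, 15 were tested. In limma 0 passed, and 4 were at an unadjusted p under 0.05, beside 1068 of all 8685 tested genes. Of all 8685 tested genes 1 passed, so nothing is read from a count of 0 in this list or in those below. Of the 15, 9 had a higher and 6 a lower mean in the knockout. The median difference was 0.13, or 0.24 under median scaling (12 higher, 3 lower), and 0.014 within array set 1 and 0.016 within array set 2. Per3, a period gene, read 5.93, 5.00, 5.68, 6.11 and 5.90 in WT_640 to WT_644 and 6.76, 6.12, 6.32, 6.43 and 7.27 in IFNgKO_645 to IFNgKO_649. Its groups did not overlap, by a narrow gap, with the knockout above as for 0.706% of all probes. The difference was 0.85 ± 0.22 (limma, adjusted p = 0.242). Arntl, the partner of CLOCK, differed by -0.61 ± 0.17 (limma, adjusted p = 0.242), Nr1d2 by 0.63 ± 0.22 (limma, adjusted p = 0.320) and Timeless by 0.57 ± 0.20 (limma, adjusted p = 0.305). Without background correction these differences were smaller, 0.45 for Per3, -0.31 for Arntl, 0.36 for Nr1d2 and 0.35 for Timeless, and without IFNgKO_649 that of Nr1d2 was 0.42. By array set, 4 of the 15 genes passed, all of them higher in set 2. Of all 8685 tested genes, 1042 passed higher and 556 lower in set 2, and nothing is read from the count of 4. Nr1d2 passed by 1.39 (limma, adjusted p = 0.000656) and Arntl by 1.14 (limma, adjusted p = 0.000343). Per1 passed by 1.14 (limma, adjusted p = 0.00484) and Per2 by 0.69 (limma, adjusted p = 0.0176). A second Per1 probe gave 0.31 (limma, adjusted p = 0.387), and a second Per2 probe gave 0.82 (limma, adjusted p = 0.0103). Without background correction the array set differences of Nr1d2 and Arntl were 0.71 and 0.56, and both still passed. Both probes were dim in array set 1, where Nr1d2 read 4.89 to 5.87 and Arntl 4.90 to 5.70. Signal cleared the detection limit in 3 WT and 4 knockout samples for Nr1d2. For Arntl it did so in 4 WT and 3 knockout samples. These 2 probes may have met the detection filter through array set 2, where their means were higher, so little is read from their passing.

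Genes linked to D-box factors in other mouse tissues, mainly detoxification enzymes and transporters, gave no difference that passed. At an unadjusted p under 0.05 were 0 of them, beside 1068 of all 8685 tested genes. Of 20 listed, 10 were tested, 4 with a higher and 6 with a lower mean, with differences from -0.27 to 0.19 and a median of -0.01. This balance moved with the setting: the median was 0.15 under median scaling (9 higher, 1 lower), 0.28 within array set 1 (8 higher, 2 lower) and -0.28 within array set 2 (2 higher, 8 lower). They included Abcc2, an efflux pump (-0.27), Ces2a, a carboxylesterase (0.19), Aldh1a1, a retinaldehyde dehydrogenase (0.17), and Alas1, the first enzyme of haem synthesis (-0.09). A dimmer Abcc2 probe gave -0.004. Of 6 further clock-driven output genes, 4 were tested, 3 with a higher and 1 with a lower mean, and 0 passed, with Usp2, a deubiquitinase, at 0.24 ± 0.12 (limma, adjusted p = 0.449). The others were Tsc22d3, a glucocorticoid-induced gene (-0.16), and the zinc finger factors Klf9 (0.02) and Klf10 (0.01).

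In the circuit that runs through STAT3 to Nfil3 in gut epithelium, 10 of 16 listed genes were tested, 4 had a higher and 6 a lower mean, and 0 passed (median -0.04, or 0.03 under median scaling). At an unadjusted p under 0.05 were 0 of the 10. Stat3 differed by -0.26 ± 0.14 (limma, adjusted p = 0.445), and Il23a, a subunit of interleukin-23, by -0.29 ± 0.14 (limma, adjusted p = 0.433). Other measured Stat3 probes gave -0.27 (limma, adjusted p = 0.585) and -0.08 (limma, adjusted p = 0.870). Myd88, an adaptor of Toll-like receptors, differed by -0.22 ± 0.12 (limma, adjusted p = 0.485). Under median scaling the first Stat3 probe was at -0.075 and Myd88 at -0.039. Scd1, a desaturase of lipid synthesis, had the widest spread at 1.27 ± 0.60 (limma, adjusted p = 0.414).

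Among genes that respond to glucocorticoid or fasting, 11 of 15 were tested, 3 had a higher and 8 a lower mean, and 0 passed. At an unadjusted p under 0.05 were 4 of the 11, beside 1068 of all 8685 tested genes. The median of the 11 was -0.17, and -0.004 under median scaling. The metallothionein Mt2 differed by -1.10 ± 0.22 (limma, adjusted p = 0.175), with all knockout samples below all WT samples, a separation that 0.631% of probes showed, and was -0.63 without background correction. The related Mt1 differed by -0.57 ± 0.17 (limma, adjusted p = 0.272). Angptl4, an inhibitor of lipoprotein lipase, differed by -0.73 ± 0.25 (limma, adjusted p = 0.313) and Pdk4, a kinase of pyruvate dehydrogenase, by -0.63 ± 0.21 (limma, adjusted p = 0.297). Of 9 C/EBP relatives, bZIP factors like the D-box proteins, 6 were tested and 0 passed, with a median of -0.11 that became 0.11 under median scaling. At an unadjusted p under 0.05 were 2 of the 6. Ddit3, a stress-induced member, differed by -0.49 ± 0.16 (limma, adjusted p = 0.286) and Cebpg by -0.45 ± 0.18 (limma, adjusted p = 0.361), while Cebpb was at -0.20 and Cebpa at 0.11.

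Markers of other cells in the tissue were set beside these values, and their part in the results was not tested. Of 7 T cell markers 4 were tested, all with a higher knockout mean and 0 past the threshold. All 4 were at an unadjusted p under 0.05, beside 1068 of all 8685 tested genes. Their summed linear intensity was 281 to 338 in WT and 309.6 to 598 in the knockout, with Cd4 and Cd8a detected on no array. The largest of these differences was that of Cd8b1, a CD8 subunit, at 1.14 ± 0.24 (limma, adjusted p = 0.189), and 1 of 5 WT arrays and 4 of 5 knockout arrays detected it. Cd8b1 met the detection filter mainly through the knockout arrays, so nothing is read from its direction. The T cell count and sum include it. Cd3d (0.47), Cd3g (0.60) and Cd3e (0.42), parts of the T cell receptor complex, were smaller. Of 6 macrophage markers 3 were tested, all with a higher knockout mean, 0 past the threshold and 2 at an unadjusted p under 0.05. Their sums were 615 to 1466 in WT and 922 to 1419 in the knockout. The 5 smooth muscle markers summed to 39517 to 57762 in WT and 54319 to 58381 in the knockout. The 3 measured enterocyte markers summed to 69911 to 93965 in WT and 79430.1 to 97644 in the knockout. Of 10 markers of natural killer and innate lymphoid cells, in which Nfil3 is also active, only Il7r was tested (-0.29 ± 0.14; limma, adjusted p = 0.431), and 8 were detected on no array. Of 5 neuron and glia markers, only Uchl1 was tested (-0.57 ± 0.18; limma, adjusted p = 0.286).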

How the data were processed

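Ileum RNA of 10 samples was read on Illumina bead arrays. Per the file headers, the deposited table holds a non-normalised intensity and a detection p-value per probe. The authors' own value table holds linear intensities with column medians of 104.3 to 104.8. Set against the non-normalised intensities, its values run in the same direction and scale, quantile normalised without background subtraction. Per the submitters' processing notes lumi was used, and its version and role are not given in the sources used here. Log2 levels were computed here from the deposited intensity by background correction from the detection p-values, quantile normalisation and an offset of 16 (neqc, limma 3.58.1, R 4.3.3). Probes were kept where the detection p was below 0.05 on 5 or more arrays. Models with genotype and array set were fitted over all 12039 probes with limma's lmFit and eBayes, with Benjamini-Hochberg adjustment and a threshold of 0.05, and the fit was tested on simulated data.

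Of 25697 probes, 23978 had 1 gene symbol, 0 several and 1719 none. Of the named probes 23971 were matched to the RefSeq gene table and 7 were not, and 8 symbols were updated. Where a gene had several probes, lists used the probe with the highest mean level. The 4 tested genes of each list with the lowest unadjusted p were named, and the 4 most like and 4 most opposite to Dbp and to Nfil3. The members and gene lists were chosen with earlier results of these data known. The number of arrays limits the precision. Alternatives covered background correction, scaling, the filter, array set, variance model, array weights and left-out samples.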

Additional observations from a re-analysis of the deposited data

How the results depend on the processing

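Probes past 5% for genotype numbered 2, with 0 higher and 2 lower. The number was 5 with an offset of 50 (3 higher, 2 lower), 10 under median scaling (8 higher, 2 lower), 5 on the authors' table (3 higher, 2 lower) and 4 with a trended robust variance (2 higher, 2 lower). It was 1 among probes detected on all arrays and 1 without the array set term. Within array set 1 it was 0 in limma (530 at an unadjusted p under 0.05), and within array set 2 it was 0 (888 such probes). It ran from 1 to 3 when single samples were left out, and was 1 without WT_641 or WT_644 or without IFNgKO_645, IFNgKO_646, IFNgKO_648 or IFNgKO_649.

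Of the clock output probes other than Dbp and Nfil3, 0 passed for genotype, and 1 passed under median scaling (Ciart ILMN_3102736). For the difference between array sets 1 passed, and 2 passed without background correction and on the authors' table (with Nfil3) and under median scaling (with Ciart ILMN_3029489). With single samples left out this number ran from 1 to 2, with Hlf added without WT_640 or WT_644, Ciart without WT_642, Dbp without IFNgKO_645 and Nfil3 without IFNgKO_648.

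Dbp kept its sign over 22 alternatives (0.85 to 1.35), as did Nfil3 (-1.11 to -0.65). The Hlf difference turned to 0.063 under median scaling and 0.0050 with array weights, and ran from -0.13 to 0.033 with single samples left out. Tagln was at -0.20 within array set 1, and the array set difference of Tef ran from -0.015 to 0.26 with single samples left out. The correlation of Dbp and Nfil3 within genotype and array set was -0.21 under median scaling, -0.49 without the 2 samples farthest for Dbp, and -0.78 to -0.50 with single samples left out. Without background correction, differences of dim probes shrank by over 1.5 times, as for both Ciart probes (0.68 and 0.47), Per3 (0.45), Arntl (-0.31), Mt2 (-0.63) and Cd8b1 (0.57). The cause was not tested. No paired analysis was possible because no sample number is shared between the groups.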

Other observations

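IFNgKO_649 held the extreme value of several named genes besides Nfil3. They are given because of that extreme, and the share of all genes with their extreme in this sample was not counted. This array also had the most detected probes, 12975, and a weight of 0.793 against 1.48 to 1.69 for the other knockout samples. Nr1d2 read 7.68 there against 5.11 to 6.74 in the other knockout samples and 4.89 to 6.27 in WT. Timeless read 7.68 there against 6.75 to 7.23 in the other knockout samples. Per3 read 7.27 there against 6.12 to 6.76, and Stat3 read 10.46 against 10.56 to 11.22. No group of 5 samples among the 14 examined for the clock output factors had a sample past Dixon's critical value.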
